A study of Mus musculus with 12 samples.

Results

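The genes described here are the 33 genes of cholesterol and fatty acid synthesis listed by name, taken from the 55357 genes counted in each library. They were chosen by gene symbol and fall into 18 genes of sterol synthesis, 5 genes of SREBP control and 10 genes of fatty acid synthesis. All 33 were matched, and all 33 had counts high enough to be tested in each of the 6 comparisons below.

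Cholesterol is built from acetyl-CoA through mevalonate, farnesyl diphosphate, squalene and lanosterol, and long-chain fatty acids are built from malonyl-CoA by fatty acid synthase and then elongated and desaturated. The transcription factors called SREBPs control both paths: when membrane sterol is low, the escort protein SCAP carries an SREBP from the endoplasmic reticulum to the Golgi, where it is cut and its active part goes to the nucleus. In the brain, cholesterol is made locally because lipoproteins do not cross the blood-brain barrier. In young animals astrocytes, neurons and oligodendrocytes making myelin all synthesize it.

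Messenger RNA was sequenced from mouse cortex with hippocampal formation at postnatal day 5, in 12 libraries from 6 animals. The cKO animals (T3, T6 and T80) were Nestin-EgfrF/F, with a floxed Egfr removed in the brain through the Nestin driver, which acts in neural progenitors and therefore in the neurons and glia that come from them. The control animals (T4, T8 and T70) are given as EgfrF/+ in the protocol and as WT in the genotype label, and whether they carried the recombinase is not stated. From every animal a rostral and a caudal piece were taken and each gave 1 library, so each of the 4 groups (cKO rostral, control rostral, cKO caudal, control caudal) had 3 libraries. The labels do not say which pups shared a litter, so litter could not be taken into account. In the genotype comparisons the p-values set the difference between groups against the spread between these animals. The main region and interaction tests took the rostral and caudal libraries of an animal as independent. Pairing them was run as an alternative.

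Libraries held between 43810458 and 87170315 counts. The rostral piece of cKO animal T6 was unlike its group: mitochondrial genes took 8.18% of its counts, against 1.85% to 3.98% in the other libraries, and the medians and counts of calls below are also given without animal T6. Egfr, the targeted gene, checks the labels: it had 10.3, 6.37 and 12.6 CPM in cKO rostral libraries, against 41.8, 39.7 and 48.9 CPM in control rostral libraries, and 5.81, 14.6 and 9.49 CPM in cKO caudal libraries, against 45.4, 39.1 and 40.2 CPM in control caudal libraries (CPM: counts scaled to library size, with TMM factors over the 12 libraries). Values are listed in the order T3, T6, T80 for cKO and T4, T8, T70 for control here and throughout. Every cKO library lay below every control library for Egfr, and with both pieces summed per animal it fell to 23.3% of control, a log2 fold change of -2.10 with SE 0.11 and an edgeR adjusted p of 0.0019. The test is edgeR's quasi-likelihood F test, with p-values adjusted by Benjamini-Hochberg over all genes tested. Within a region Egfr did not pass it (adjusted p = 0.186 in rostral and 0.102 in caudal cortex). The counts cover all exons, and the sources used here do not name the exons removed.

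SREBPs bind sterol regulatory elements, usually beside a CCAAT box bound by NF-Y, and SREBP-type factors can also bind the E-box CACGTG. The 250 bases before each start were searched on both strands in the RefSeq promoter table (build GRCm38.p6), which held 33 promoters of 26 of the 33 genes. Not matched were Fads1, Scd1, Stard4, Sqle, Fdft1, Scd2 and Fdps. The form TCACCCCAC was present in 1 matched promoter, that of Hmgcs1, and in 0.496% of all 32851 promoters. The looser form TCACNCCAC, which includes it, was likewise found in 1 matched gene and in 1.05% of all promoters. CCAAT was present in 63.6% of the 33 promoters and in 33.8% of all promoters. CACGTG was present in 18.2% of the 33 promoters and in 6.02% of all promoters. Hmgcs1 is shown as the promoter that holds the sterol element, which begins 137 bases before the start, at chr13:119690101-119690350 on the plus strand. Sc5d is shown as a promoter with CACGTG beside CCAAT, at chr9:42264301-42264550 on the minus strand, and was picked after the motif counts were seen. Of the sterol and SREBP control genes, Insig1 and Hsd17b7 hold the same pair. The order among them was by unadjusted genotype p per animal, which was smallest for Sc5d, so the choice also used these data. Capitals mark the searched motifs, with ATTGG being CCAAT on the other strand. A match is a string of letters and was not tested as a binding site.
Hmgcs1: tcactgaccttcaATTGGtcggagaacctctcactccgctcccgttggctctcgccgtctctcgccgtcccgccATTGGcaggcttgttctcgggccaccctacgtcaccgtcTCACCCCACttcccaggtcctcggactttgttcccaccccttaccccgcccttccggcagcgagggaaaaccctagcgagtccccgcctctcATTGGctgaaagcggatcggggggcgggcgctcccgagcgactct
Sc5d: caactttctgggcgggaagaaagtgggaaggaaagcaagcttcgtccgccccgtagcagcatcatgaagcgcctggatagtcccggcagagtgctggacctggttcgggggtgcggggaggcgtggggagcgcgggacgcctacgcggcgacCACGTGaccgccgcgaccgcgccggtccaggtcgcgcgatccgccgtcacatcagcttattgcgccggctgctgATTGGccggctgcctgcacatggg

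The 33 genes spanned a wide range of levels. Per length (FPKM: CPM divided by summed exon length in kb), the control rostral libraries held 387.9 ± 39.3 FPKM of Hmgcs1 and 354.4 ± 7.28 FPKM of Scd2 (SD, n = 3). Their ranges overlapped (344.0 to 419.8 and 346.0 to 358.9 FPKM). Next were Fads2 at 112.6 ± 2.67 FPKM, Fasn at 83.6 ± 4.41 FPKM, Acly at 63.7 ± 2.07 FPKM and Acat2 at 57.2 ± 4.94 FPKM, and the ranges of the last 2 overlapped. The genes of lowest level were Lss at 8.61 ± 0.436 FPKM, Tm7sf2 at 6.39 ± 0.271 FPKM, Ebp at 4.68 ± 0.112 FPKM and Srebf1 at 4.35 ± 0.151 FPKM. The deposited values of Fdps were fractional in 11 of the 12 libraries, those of Hmgcs1 in 9, those of Tm7sf2 in 8 and those of Scd2 in 7. Scd1 and Scd2 are closely related copies, and exons of Tm7sf2 overlap those of Vps51 on the same strand. The sources used here give neither the division of such reads by the authors' counting nor its strand setting, so the levels of these genes are uncertain. Fdft1, Cyp51 and Srebf1 overlap exons of Ctsb, Akap9 and Rai1 on the opposite strand.

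The comparison of cKO with control asks whether deletion of Egfr alters these transcripts. Nearly all of the 33 genes had lower mean values in cKO, in both regions, but no gene passed the main test in any genotype comparison. In bulk tissue, fewer cells of a type and less RNA per cell cannot be told apart. The median log2 fold change of the 33 genes was -0.42 in rostral cortex, where the median of all genes tested was 0.04. In caudal cortex it was -0.22, where that of all genes was 0.00, and per animal it was -0.33, where that of all genes was 0.02. In rostral cortex 32 of 33 were below 0, the exception being Pmvk, a phosphomevalonate kinase, at 0.10. In caudal cortex 32 of 33 were below 0, the exception being Elovl6, a fatty acid elongase, at 0.03. Per animal, 32 of 33 were below 0, with Pmvk at 0.0047.

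By edgeR, 0 of 33 genes passed in rostral cortex, where 0.0% of all genes were called, 0 of 33 in caudal cortex, where 0.0821% of all genes were called, and 0 of 33 per animal, where 0.179% of all genes were called. At an unadjusted p under 0.05 there were 12 genes in rostral cortex, 15 in caudal cortex and 17 per animal, all of them lower in cKO. Of all genes tested, 1955 of 20599 were at such a p in rostral cortex, 3004 of 20705 in caudal cortex and 3528 of 22924 per animal. DESeq2 called 3 of 33 genes in rostral cortex (Hmgcs1, Me1 and Scd1, where 1.91% of all genes were called), 5 in caudal cortex (Fads1, Msmo1, Scd1, Scd2 and Tm7sf2, where 2.5% of all genes were called) and 6 per animal (Fads1, Fads2, Hmgcs1, Scd1, Scd2 and Tm7sf2, where 3.5% of all genes were called). Every gene that DESeq2 called was lower in cKO.

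The rostral library of animal T6 was the lowest of the 12 libraries for 30 of the 33 genes. Without T6, edgeR called 9 genes in rostral cortex, Acly, Dhcr7, Hmgcs1, Idi1, Me1, Msmo1, Scd1, Scd2 and Tm7sf2 (5.01% of all genes were then called). Per animal it called 6, Dhcr7, Fads1, Msmo1, Scd1, Scd2 and Tm7sf2 (2.92% of all genes), and in caudal cortex it called 1, Scd1 (0.768% of all genes). Without T6 the median log2 fold change of the 33 genes was -0.25 in rostral cortex, -0.14 in caudal cortex and -0.18 per animal. The other rostral cKO libraries were low as well: T3 and T80 each lay below the lowest control rostral library for 30 of the 33 genes. The share of all genes was not counted for these single libraries, so the counts have no background.

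In rostral cortex every cKO library lay below every control library for 27 of 33 genes, where 10.8% of all genes showed this. In caudal cortex it held for 15 of 33, where 11.7% of all genes showed it, and per animal for 26 of 33, where 13.4% of all genes showed it. Among the caudal libraries, T3 lay below the lowest control for 16 genes and T6 and T80 for 30 genes each. The genes for which cKO and control did not overlap in either region were 11: Mvk, Fdft1, Tm7sf2, Msmo1, Ebp, Sc5d, Dhcr7, Fasn, Scd1, Scd2 and Fads1. The share of all genes was not counted for both regions together or for single caudal libraries, so these counts have no background.

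**Figure D1:**
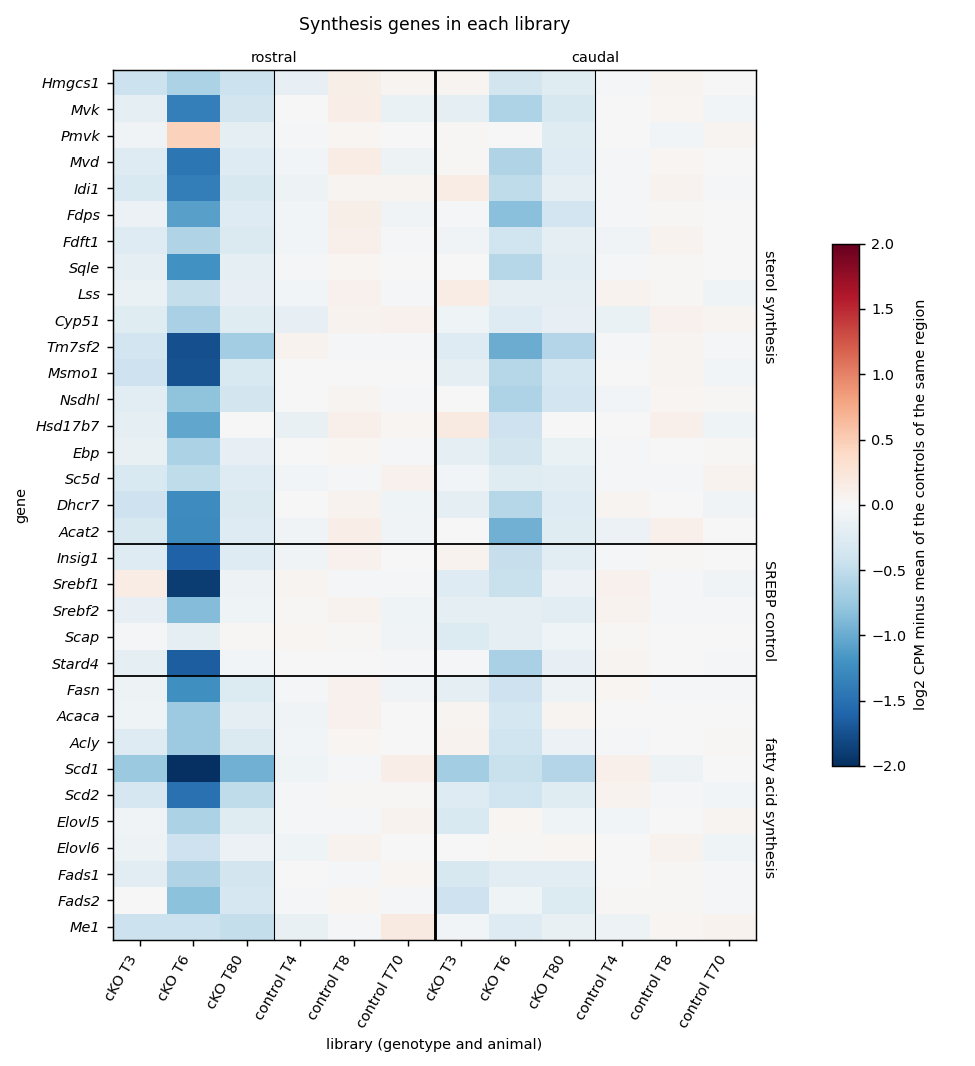
Level of each of the 33 genes (down) in each of the 12 libraries (across, cKO left of control in each region), as log2 of CPM + 0.5 minus the mean of the control libraries of the same region; red is higher and blue lower, and the scale stops at 2 in either direction. The T6 cKO rostral library is the lowest column, and T3 and T80 are pale blue over most genes.

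The sterol synthesis genes had a median log2 fold change of -0.44 in rostral cortex, with 17 of 18 below 0, and the test called 0 of 18. Without T6 it was -0.26, with 18 of 18 below 0. In caudal cortex the median was -0.24, with 18 of 18 below 0 and 0 of 18 called. Without T6 the caudal median was -0.13, with 17 of 18 below 0. Hmgcs1, the HMG-CoA synthase that makes the substrate of the mevalonate step, had 1313, 1141 and 1320 CPM in cKO rostral libraries, against 1580, 1928 and 1837 CPM in control rostral libraries. It had 1476, 1106 and 1201 CPM in cKO caudal libraries, against 1381, 1475 and 1418 CPM in control caudal libraries. The rostral groups did not overlap, the caudal groups did, and the log2 fold change was -0.49 (SE 0.12) in rostral cortex and -0.17 (SE 0.11) in caudal cortex, and without T6 -0.43 in rostral and -0.10 in caudal cortex. Idi1, the isomerase that provides the isoprene units in their reactive form, had 62.9, 29.4 and 62.0 CPM in cKO rostral libraries, against 72.5, 80.6 and 81.1 CPM in control rostral libraries. It had 74.6, 47.2 and 59.6 CPM in cKO caudal libraries, against 65.8, 70.8 and 65.3 CPM in control caudal libraries. The rostral groups of Idi1 did not overlap, and in caudal cortex T3 lay above all controls. Fdft1, squalene synthase and the start of the sterol-specific branch, had 155, 122 and 153 CPM in cKO rostral libraries, against 179, 199 and 181 CPM in control rostral libraries. It had 168, 134 and 157 CPM in cKO caudal libraries, against 169, 187 and 178 CPM in control caudal libraries. Fdft1 was without overlap in both regions, with T3 just under the lowest control in caudal cortex, and stood at -0.30 (SE 0.10) per animal (adjusted p = 0.256, edgeR). Lss, lanosterol synthase, which closes the sterol rings, had 84.5, 66.5 and 83.0 CPM in cKO rostral libraries, against 89.3, 98.2 and 91.2 CPM in control rostral libraries. It had 86.3, 68.2 and 67.7 CPM in cKO caudal libraries, against 81.6, 79.2 and 73.2 CPM in control caudal libraries. Lss was below its controls in all rostral cKO libraries, but in caudal cortex T3 lay above them.

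Tm7sf2, a sterol reductase, had the largest log2 fold change of the sterol group per animal, -0.73 (SE 0.23), at 60.5% of control (adjusted p = 0.25, edgeR). It had 21.6, 7.94 and 17.2 CPM in cKO rostral libraries, against 29.5, 27.6 and 27.4 CPM in control rostral libraries. It had 22.1, 13.1 and 17.4 CPM in cKO caudal libraries, against 25.9, 27.5 and 26.2 CPM in control caudal libraries. All 6 cKO libraries were below all 6 control libraries, and without T6 the per-animal log2 fold change was -0.48 (adjusted p = 0.0431, edgeR). Sc5d, the sterol desaturase of the late steps, had 76.8, 66.8 and 79.8 CPM in cKO rostral libraries, against 91.5, 93.5 and 102 CPM in control rostral libraries. It had 86.8, 76.3 and 76.9 CPM in cKO caudal libraries, against 88.4, 87.8 and 94.5 CPM in control caudal libraries. Its groups did not overlap in either region. Dhcr7, a reductase whose product is cholesterol, had 61.0, 33.6 and 66.4 CPM in cKO rostral libraries, against 81.9, 85.6 and 76.8 CPM in control rostral libraries. It had 68.4, 51.9 and 64.8 CPM in cKO caudal libraries, against 80.3, 77.9 and 73.6 CPM in control caudal libraries. All 3 cKO libraries lay below all 3 controls in both regions for Dhcr7, and without T6 its per-animal log2 fold change was -0.29 (SE 0.05, adjusted p = 0.028, edgeR). Msmo1, a methylsterol oxygenase, was at -0.54 (SE 0.19) per animal, at 68.9% of control, and without T6 at -0.32 (adjusted p = 0.0117, edgeR). With all animals kept, the lowest per-animal adjusted p of any sterol gene was 0.195 (edgeR), so neither Dhcr7 nor Msmo1 passed. The other sterol genes are Mvk, Pmvk and Mvd of the mevalonate steps, Fdps, which joins isoprene units into farnesyl diphosphate, Sqle, squalene epoxidase, Cyp51, the lanosterol demethylase, Nsdhl and Hsd17b7, which act in removal of the methyl groups, Ebp, a sterol isomerase, and Acat2, a thiolase. Their per-animal log2 fold changes lay between -0.46 (Mvk) and 0.0047 (Pmvk).

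The SREBP control genes had a median of -0.38 in rostral cortex and -0.19 in caudal cortex, with 5 of 5 below 0 in each, and 0 of 5 were called. Without T6 the median was -0.11 in rostral cortex, with 4 of 5 below 0, and -0.18 in caudal cortex. Insig1, which holds the SCAP-SREBP complex in the endoplasmic reticulum, had 83.3, 32.3 and 83.6 CPM in cKO rostral libraries, against 94.7, 106 and 99.3 CPM in control rostral libraries. It had 90.8, 62.9 and 74.7 CPM in cKO caudal libraries, against 85.2, 88.4 and 86.0 CPM in control caudal libraries. Its rostral groups did not overlap and its caudal groups did, with T3 above all controls. Srebf1, which encodes an SREBP tied mainly to fatty acid genes, had 27.1, 6.17 and 22.8 CPM in cKO rostral libraries, against 25.5, 24.2 and 23.9 CPM in control rostral libraries. It had 21.6, 18.9 and 23.9 CPM in cKO caudal libraries, against 27.6, 25.6 and 24.7 CPM in control caudal libraries. The rostral fold of Srebf1 rested on T6: without T6 the log2 fold change was 0.04. Srebf2, which encodes an SREBP tied mainly to cholesterol genes, had 238, 146 and 252 CPM in cKO rostral libraries, against 271, 280.1 and 251 CPM in control rostral libraries. It had 231, 228 and 225 CPM in cKO caudal libraries, against 274, 256 and 254 CPM in control caudal libraries. The caudal groups of Srebf2 did not overlap and the rostral groups did. Scap, the escort protein, had 77.1, 69.0 and 80.7 CPM in cKO rostral libraries, against 81.7, 81.1 and 75.8 CPM in control rostral libraries. It had 71.0, 75.1 and 80.7 CPM in cKO caudal libraries, against 86.6, 84.6 and 85.1 CPM in control caudal libraries. Its log2 fold change per animal was -0.13 (SE 0.07). Stard4, a cytosolic sterol carrier, had 66.4, 23.9 and 72.9 CPM in cKO rostral libraries, against 75.8, 76.3 and 74.7 CPM in control rostral libraries. It had 67.8, 43.9 and 61.8 CPM in cKO caudal libraries, against 71.7, 68.4 and 67.2 CPM in control caudal libraries. For Stard4 the T6 library was the lowest of its region in both pieces.

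The fatty acid genes had a median of -0.39 in rostral cortex and -0.18 in caudal cortex, with 10 of 10 and 9 of 10 below 0. Without T6 the medians were -0.22 and -0.17, with 10 of 10 and 8 of 10 below 0. Scd1, a stearoyl-CoA desaturase that makes monounsaturated fatty acids, had the largest log2 fold change of the 33 genes per animal. It lies on chromosome 19 at 44382894 to 44396318, minus strand, near Scd2 at 44282113 to 44295303, plus strand (GRCm39, ENSMUSG00000037071.4 and ENSMUSG00000025203.7). Scd1 had 87.7, 35.0 and 75.0 CPM in cKO rostral libraries, against 138, 142 and 161 CPM in control rostral libraries. It had 75.0, 88.7 and 80.9 CPM in cKO caudal libraries, against 130, 114 and 121 CPM in control caudal libraries. In each region all 3 cKO values were below all 3 control values. Per animal Scd1 stood at 73.9 ± 12.01 CPM in cKO animals and 134 ± 6.58 CPM in control animals (SD, n = 3), 55.1% of control, with a log2 fold change of -0.86 (SE 0.12). Its adjusted p was 0.0514 in the edgeR test, just outside the threshold. Over the alternatives the adjusted p ran from 4.47e-08 (DESeq2) to 0.305 (without control T70), and it was 0.0019 without cKO T6. Scd2, the desaturase of higher level in brain, had 1528, 685 and 1367 CPM in cKO rostral libraries, against 1890, 1957 and 1961 CPM in control rostral libraries. It had 1447, 1318 and 1461 CPM in cKO caudal libraries, against 1828, 1709 and 1675 CPM in control caudal libraries. The groups of Scd2 did not overlap in either region, and its per-animal log2 fold change was -0.50 (SE 0.15), and without T6 -0.33 (SE 0.05, adjusted p = 0.0142, edgeR). With all animals kept, Scd2 did not pass the edgeR test per animal. The ratio of Scd2 to Scd1 per length was 13.3 to 17.5 in the cKO libraries and 10.9 to 13.5 in the control libraries. Reads of the copies may have been divided between them.

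Fasn, fatty acid synthase, had 852, 391 and 754 CPM in cKO rostral libraries, against 902, 969 and 875 CPM in control rostral libraries. It had 667, 566 and 704 CPM in cKO caudal libraries, against 775, 740.3 and 740 CPM in control caudal libraries. Both pieces gave non-overlapping groups for Fasn, with T6 lowest in each. Acaca, acetyl-CoA carboxylase, which makes malonyl-CoA, had 266, 169.7 and 250.5 CPM in cKO rostral libraries, against 268, 299 and 280.5 CPM in control rostral libraries. It had 231, 173 and 229 CPM in cKO caudal libraries, against 222, 220 and 222 CPM in control caudal libraries. Its rostral groups were separate by a small gap between T3 and T4, and its caudal groups overlapped. Acly, ATP citrate lyase, the source of cytosolic acetyl-CoA, had 281, 203 and 274 CPM in cKO rostral libraries, against 324, 345 and 339.8 CPM in control rostral libraries. It had 292, 211 and 256 CPM in cKO caudal libraries, against 275, 277 and 284 CPM in control caudal libraries. In caudal cortex T3 was above all controls for Acly. Me1, malic enzyme, which supplies NADPH, had 95.0, 94.6 and 91.3 CPM in cKO rostral libraries, against 114, 126 and 144 CPM in control rostral libraries. It had 98.8, 86.3 and 92.3 CPM in cKO caudal libraries, against 95.9, 105 and 108 CPM in control caudal libraries. Its rostral groups did not overlap, and Me1 was at -0.44 (SE 0.10) in rostral cortex. Fads1, a desaturase of polyunsaturated fatty acids, had 169, 130.3 and 152 CPM in cKO rostral libraries, against 195, 194 and 202 CPM in control rostral libraries. It had 151, 161 and 163 CPM in cKO caudal libraries, against 188, 192 and 185 CPM in control caudal libraries. Fads1 was without overlap in both regions, at -0.32 (SE 0.07) per animal (adjusted p = 0.133, edgeR), and at -0.26 without T6 (adjusted p = 0.0201, edgeR). Fads2, the desaturase that acts before Fads1 in the same path, had 372, 209.7 and 295 CPM in cKO rostral libraries, against 366, 381 and 366 CPM in control rostral libraries. It had 303, 381 and 334 CPM in cKO caudal libraries, against 411, 409 and 391 CPM in control caudal libraries. Its rostral groups overlapped, with T3 inside the control range, and its caudal groups did not. Elovl5 and Elovl6, elongases, were at -0.20 (SE 0.07) and -0.09 (SE 0.07) per animal.

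**Figure D2:**
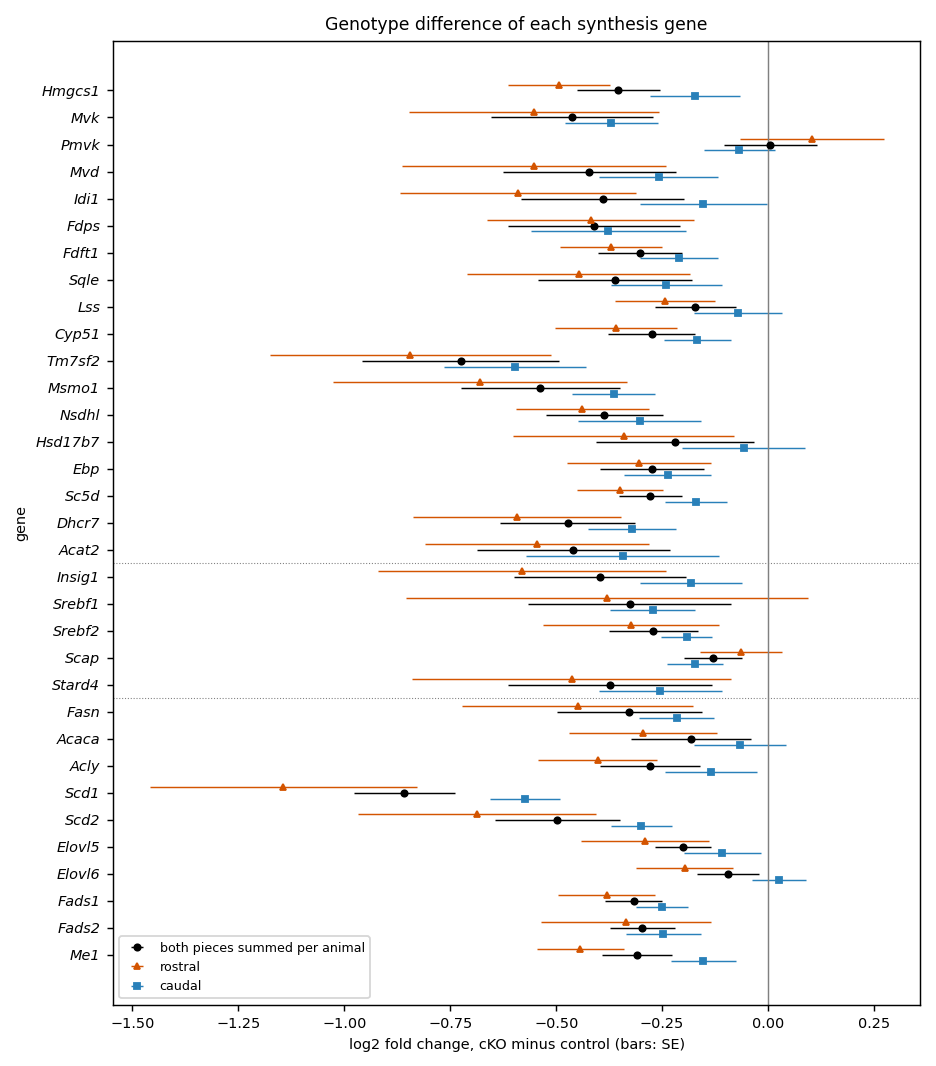
Log2 fold change (cKO minus control, horizontal axis, bars are SE) of each of the 33 genes in rostral cortex, caudal cortex and the per-animal sums. In most genes the rostral point lies left of the caudal point, and Scd1 and Tm7sf2 lie farthest left.

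**Figure D3:**
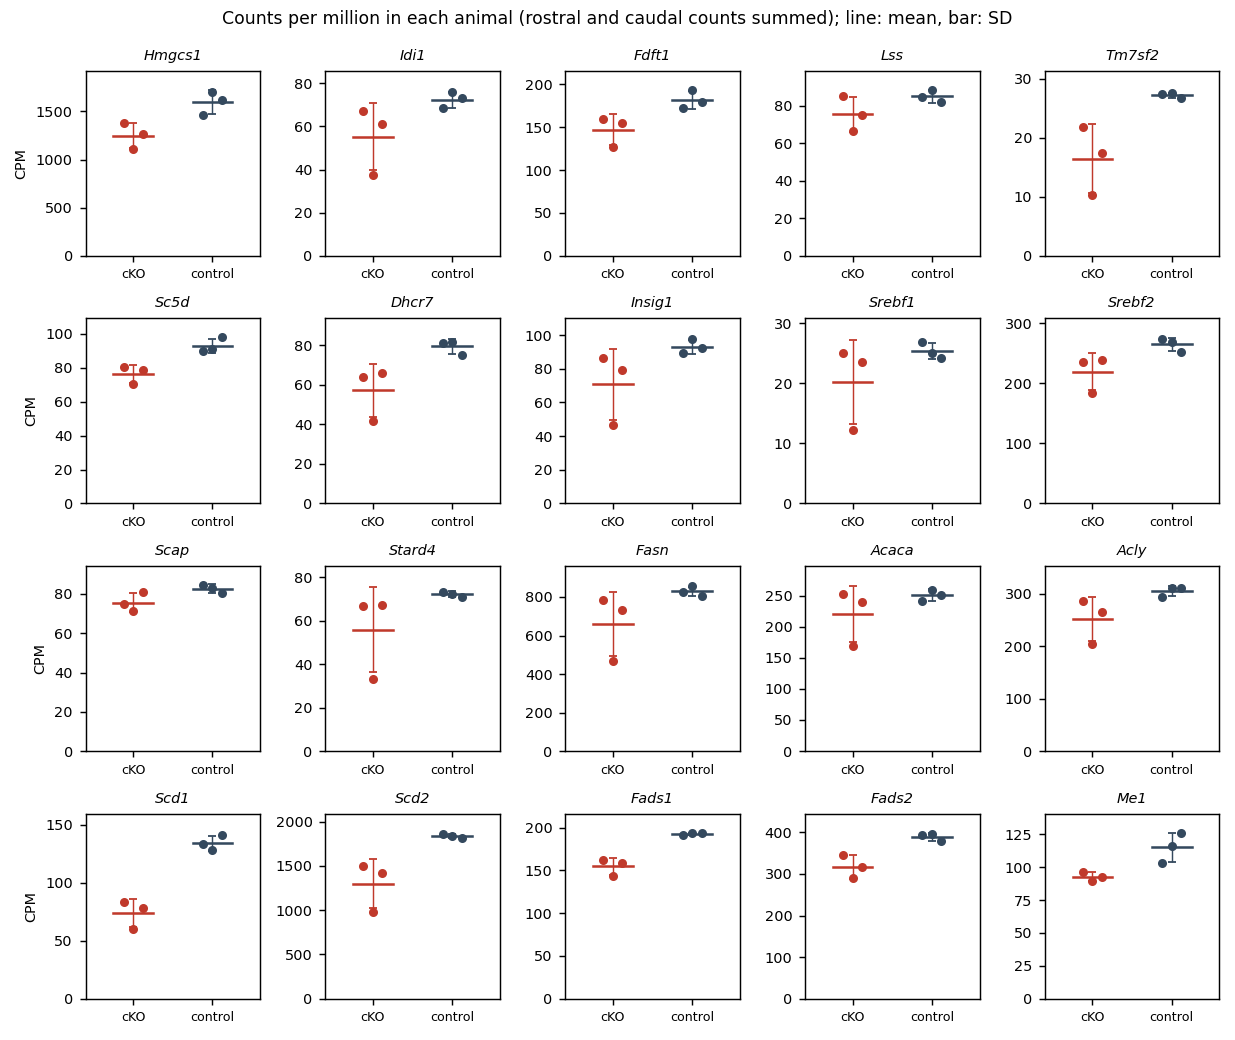
CPM of the 20 genes with values given by library, for each animal with rostral and caudal counts summed (points), mean (line) and SD (bar), cKO left of control, n = 3 each. In most panels the cKO points lie below the control points, with T6 lowest (for example Scd2 at 979 CPM, where T3 and T80 are at 1498 and 1422 CPM).

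Lists of related lipid genes had medians nearer to 0. Of the 8 genes that process SREBPs, 9 isoprenoid genes, 11 efflux and LXR genes and 12 fatty acid oxidation genes, 0 were called in any genotype comparison, and the per-animal medians were -0.03, -0.01, 0.05 and -0.11. At an unadjusted edgeR p under 0.05 per animal these lists held 1, 2, 2 and 1 genes, and 10 of the 12 oxidation genes were below 0. Of 15 other fatty acid genes 0 were called, at a median of -0.14. Of these 15, 7 were at such a p per animal, 5 lower and 2 higher in cKO. Of the 33 synthesis genes 17 were, and of all genes 3528 of 22924. Among the 15, Thrsp, a lipogenic regulator, was at 1.06 (SE 0.21) per animal (adjusted p = 0.118, edgeR), the opposite direction. Acss2, which makes acetyl-CoA from acetate, was at -0.59 (SE 0.15), and Gpam, a glycerol phosphate acyltransferase, was at -0.26 (SE 0.07). Lcat, which esterifies cholesterol, was at -0.80 (SE 0.20), Cyp46a1, which turns cholesterol into a hydroxysterol for export, at -0.26 (SE 0.08) and Abcg4, a sterol transporter, at -0.17 (SE 0.08). Of the isoprenoid genes, which include the prenyltransferase subunits named here, Pggt1b was at 0.24 (SE 0.09), Fntb at -0.17 (SE 0.07) and Fnta at -0.12 (SE 0.06). Of the oxidation genes Acaa2 was at -0.21 (SE 0.08), Acadl at -0.13 (SE 0.07) and Hadha at -0.11 (SE 0.06).

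Marker lists of astrocytes and oligodendrocytes were low in the same libraries, other lists moved as well, and their part in the lower synthesis genes was not tested. The mean log2 level of the sterol genes relative to the control mean was -0.25, -0.97 and -0.28 in the cKO rostral libraries, and the same level in control rostral libraries was between -0.05 and 0.07. The fatty acid genes were at -0.23, -0.91 and -0.38 and the SREBP control genes at -0.10, -1.25 and -0.09 in the cKO rostral libraries. In these same libraries the 14 astrocyte markers were at -0.23, -1.96 and -0.54, the 10 oligodendrocyte precursor markers at -0.29, -0.55 and -0.51, and the 10 myelinating oligodendrocyte markers at -0.22, -1.19 and -0.57. Neuron markers were at -0.19, 0.20 and -0.20, and microglia markers at 0.87, -0.75 and 0.59. In the rostral comparison 13 of 14 astrocyte, 9 of 10 precursor and 5 of 10 neuron markers had a log2 fold change below 0, and 6 of the 8 myelinating markers tested did. Microglia markers were above the control mean in 5 of the 6 cKO libraries, at 0.21, 0.13 and 0.14 in caudal cortex, and per animal 6 of 8 were higher in cKO. In the cKO caudal libraries the sterol genes were at -0.04, -0.50 and -0.25, the fatty acid genes at -0.21, -0.25 and -0.17, the astrocyte markers at -0.73, -0.31 and -0.42, the oligodendrocyte precursor markers at -0.38, -0.13 and -0.33 and the myelinating markers at -0.52, -0.40 and -0.24. Among the cKO caudal libraries T3 was lowest for the astrocyte markers, highest for the sterol genes and between T6 and T80 for the fatty acid genes. The summed astrocyte level ran from 943 to 2440 CPM in cKO rostral and from 2320 to 2570 CPM in control rostral libraries. The summed myelinating level ran from 72.5 to 146 CPM in cKO rostral and from 181 to 203 CPM in control rostral libraries. The 13 mitochondrially encoded genes, whose share can move with RNA quality, were at 0.22, 1.46 and 0.28 in the cKO rostral and 0.30, 0.88 and 0.19 in the cKO caudal libraries, above every control of their region. Per animal 13 of 13 had a log2 fold change above 0, with a median of 0.81, 12 were at an unadjusted p under 0.05 and 0 were called. Meningeal fibroblast markers were at 1.11, -3.17 and 1.55 in the cKO rostral libraries and -2.19, 0.37 and 0.63 in the cKO caudal libraries, so T6 rostral and T3 caudal held the least. Choroid plexus markers were at 3.12, -0.43 and 0.49 in the cKO rostral libraries and 0.43, 1.63 and 0.53 in the cKO caudal libraries, and per animal 8 of 8 were above 0 with 0 called. Of the 8 endothelial markers 4 were above and 4 below 0 per animal. Among the single markers, Kcnj10 and Slc7a10 of the astrocyte markers, Olig1 and Olig2 of the precursors and Enpp6 of the newly formed oligodendrocytes fell per animal (edgeR, adjusted p under 0.05). In caudal cortex Gpr37l1 and Mlc1 of the astrocyte markers, Olig1 and Bcas1, a marker of newly formed oligodendrocytes, fell, and in rostral cortex 0 markers were called. These markers were picked out after their values were seen. No marker listed was at 0 in all libraries; Opalin was at 0 in 5 libraries and Mog in 1.

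**Figure D4:**
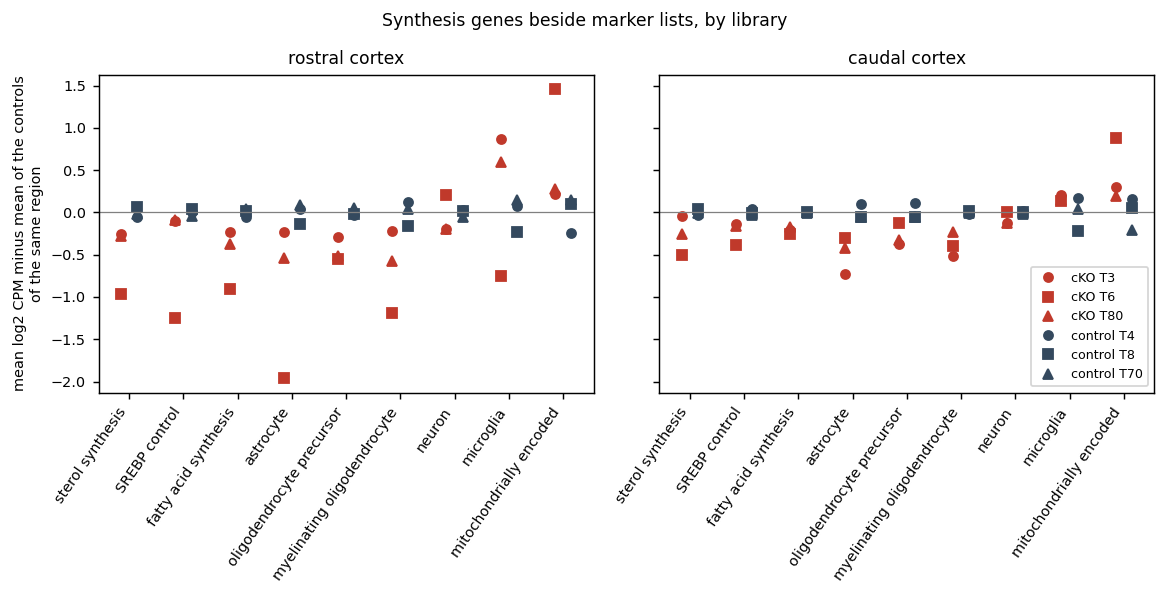
Mean log2 level relative to the control mean of the region (vertical axis) of the 3 synthesis groups and of marker lists (horizontal axis), for rostral and caudal libraries; each point is 1 library, cKO left of control. The T6 rostral square is the lowest point for the synthesis groups and the astrocyte and myelinating lists.

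The comparison of caudal with rostral cortex in control animals asks whether these genes differ along the tissue. Of the 33 genes 9 were called, each lower in caudal cortex: Acaca, Acly, Fasn, Hmgcs1, Idi1, Insig1, Lss, Me1 and Scd1. This was 27.3% of the genes, where 12.2% of all genes were called and 5.88% were called lower. Acaca was at 221 ± 1.18 CPM in caudal control cortex and 283 ± 15.8 CPM in rostral control cortex (SD, n = 3 each), and its log2 fold change was -0.35 (SE 0.05), with an edgeR adjusted p of 0.00138. Acly was at -0.27 (SE 0.05, adjusted p = 0.00342, edgeR) and Fasn at -0.28 (SE 0.05, adjusted p = 0.00557, edgeR). Hmgcs1 was at -0.32 (SE 0.07), Me1 at -0.31 (SE 0.08), Scd1 at -0.27 (SE 0.07), Lss at -0.25 (SE 0.06), Idi1 at -0.21 (SE 0.06) and Insig1 at -0.21 (SE 0.05). Of these 9, 5 are fatty acid genes, 3 are sterol genes and Insig1 is a control gene. Leaving out control T8 left 1 call (Acaca), with 1079 of all genes called. Leaving out T70 left 3 (Acaca, Acly and Fasn), with 1487 of all genes called. Leaving out T4 left 8, with 1690 of all genes called. With every control animal kept, 2492 of all genes were called. Marker lists differed between the control regions as well, and their part in the lower synthesis genes was not tested. Of the oligodendrocyte precursor markers 9 of 10 were below 0 in caudal control cortex and 4 were called lower (Cacng4, Gpr17, Olig1 and Olig2), and of the myelinating markers 7 of 8 tested were below 0 and 3 were called lower. Of the astrocyte markers 6 of 14 were below 0, with 2 called higher and 3 lower. All 13 mitochondrially encoded genes were below 0 at a median of -0.70, and 11 were called lower. Of the neuron markers 5 of 10 were below 0, with 3 called higher (Nefl, Nefm and Slc17a7) and 0 lower. Of the choroid plexus markers 0 of 7 tested were below 0 and 3 were called higher (Folr1, Kl and Otx2). These single markers were picked out after their values were seen. For 24 of the 33 genes the caudal library was lower than the rostral library in all 3 control animals. The share of all genes was not counted for this. By log2 fold change 28 of the 33 genes were below 0 in caudal control cortex, where 49.1% of all genes were. Fads2 was at 0.12 (SE 0.05), higher in caudal cortex, and did not pass (adjusted p = 0.114, edgeR). Of the related genes, Mbtps1 (0.18), a protease that cuts SREBPs, Thrsp (1.12) and Npc2 (0.29), a carrier of cholesterol in lysosomes, rose in caudal control cortex on the log2 scale. Cpt1a (-0.21) and Ehhadh (-0.64), enzymes of fatty acid oxidation, fell there.

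In cKO the test called 0 of 33 genes between the regions, where 0.0% of all genes were called, and 0 were at an unadjusted p under 0.05, where 348 of 20944 genes were. The median log2 fold change, caudal minus rostral, was 0.09 in cKO, where the control value was -0.09. None of the 33 genes was lower in the caudal library in all 3 cKO animals, and the share of all genes was not counted for this. Scd1 was at 0.31 (SE 0.31) in cKO, where it was at -0.27 (SE 0.07) in control, and Hmgcs1 at 0.0013 (SE 0.14) in cKO, where it was at -0.32 (SE 0.07) in control. The standard errors in cKO were larger than in control. The test of the difference between genotypes, the interaction, called 0 of 33 genes, where 0.0% of all genes were called. At an unadjusted p under 0.05 it had 1 gene, Me1, at 0.30 (SE 0.13), where 767 of 21599 genes were at such a p. Without T6 the cKO median between regions was -0.01. DESeq2 also called 0 of 33 genes between the regions of cKO and in the interaction. The regional difference was therefore not shown to be particular to control.

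**Figure D5:**
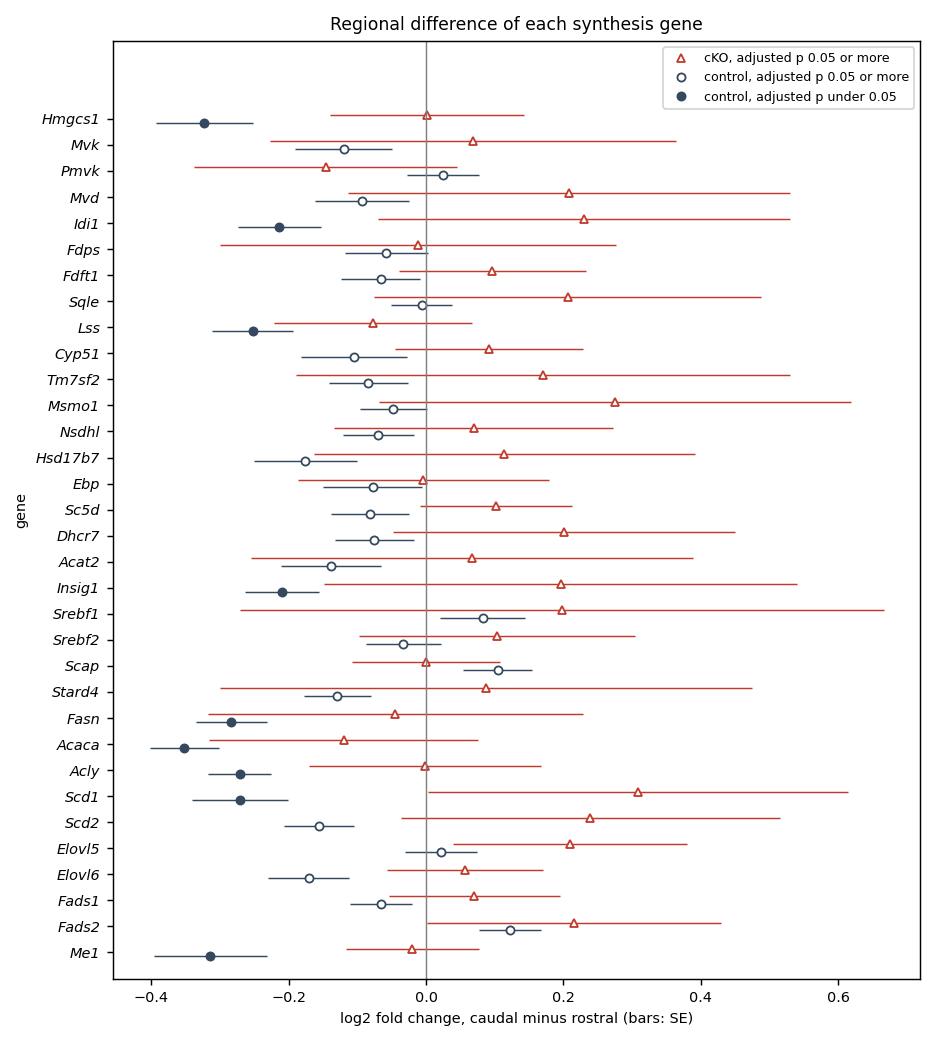
Log2 fold change (caudal minus rostral, horizontal axis, bars are SE) of each of the 33 genes in cKO (red triangles) and control (dark circles); filled symbols have an adjusted p under 0.05. The filled points are the 9 control genes, all left of 0.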

How the data were processed

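Polyadenylated RNA was captured from 12 samples and sequenced as paired ends, per the labels' protocols. The submitters' processing notes name STAR 2.7.8a, featureCounts 2.0.3 and build GRCm39. The deposited values are expected counts per gene, of which 9.69% to 14.3% per library are fractional, and the sources used here do not say how the authors divided shared reads or set strand. They were rounded to whole numbers, although plain counts had been planned for. The deposited files also give each gene's summed exon length, used only for FPKM.

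Groups came from the labels. The pieces that carry 1 T number were read as 1 animal, since the titles give each number both pieces and the protocol splits the tissue. Across 21599 genes, the correlation of their deviations from their groups' averages was r = 0.0362 for T3, -0.00379 for T6 and 0.454 for T80 in cKO, and 0.262 for T4, 0.238 for T8 and 0.328 for T70 in control.

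Each comparison was fitted in edgeR 4.0.16 (R 4.3.3) on its own groups with filterByExpr, TMM scaling and the robust quasi-likelihood F test, with Benjamini-Hochberg adjustment over all genes tested and a threshold of 0.05. SE was the absolute log2 fold change over the root of the F statistic. The scripts were tested on simulated counts with 200 changed genes. DESeq2 1.42.0, limma 3.58.1 with quality weights, RLE scaling, other filters, each animal left out and a replicate block were alternatives. Genes given by library are those past the threshold in any comparison and, in each of the 3 groups, the 5 with the smallest p per animal. From each related list up to 3 genes by the smallest p are named, with any that passed. A related gene that this rule would name is not reported here. Single genes of the list that processes SREBPs are therefore given only where they passed. The genes, lists and alternatives were chosen with earlier results of these data known.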

Additional observations from a re-analysis of the deposited data

How the results depend on the processing

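The 33 genes' median log2 fold change stayed below 0 in every genotype comparison and alternative run, while the number called moved. The main edgeR test called 0 of them in rostral cortex, and DESeq2 and limma with quality weights called 3 each (with 394 and 974 of all genes called). In caudal cortex, where the main test called 0, DESeq2 called 5 (517 of all genes). No filter on low counts and quality weights called 3 each (326 and 373 of all genes). Per animal, where the main test called 0, RLE scaling called 1 (49 of all genes) and DESeq2 6 (803 of all genes). No filter called 2 (320 of all genes) and quality weights 3 (736 of all genes). Leaving out each animal in turn gave 0 to 9 calls in rostral cortex, 0 to 2 in caudal cortex, 0 to 6 per animal and 1 to 8 between the regions of control, where the main test called 9. Signs turned for Srebf1 in rostral cortex without cKO T6 (0.037), for Acaca in caudal cortex without cKO T6 (0.049) and with quality weights (0.0073), and for Srebf2 between the regions of control without T8 (0.015). With an animal left out these values ran from -0.75 to 0.037 for Srebf1, from -0.14 to 0.049 for Acaca and from -0.064 to 0.015 for Srebf2. Of 900 values of the 20 genes given by library, in the genotype comparisons and between the regions of control, 4 turned sign under an alternative. These 20 were chosen partly by a small p in these data, and the alternatives refit the same libraries. The count is therefore no measure of stability over the 33 genes. Further values turned without cKO T6, among them Pmvk in rostral cortex (-0.12) and per animal (-0.12) and Hsd17b7 in caudal cortex (0.088). Scd1 turned between the regions of cKO, to -0.06 without T6. The cause was not tested.

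Over all genes, the rostral count was 0 in the main test, 394 in DESeq2, 974 with quality weights, 45 without a filter, 101 in 1 fit over all 12 libraries and 0 to 1058 with an animal left out. The caudal count was 17, against 517, 373, 326, 1 and 0 to 162. The per-animal count was 41, against 803 in DESeq2, 736 with quality weights, 320 without a filter, 99 in limma over 12 libraries with the replicate block and 1 to 685 with an animal left out. The count between the regions of control was 2492 and 1079 to 1690 with an animal left out. Between the regions of cKO DESeq2 called 4 genes where the main test called 0. For the interaction, where the main test called 0, DESeq2 called 14, quality weights 149, no filter 2 and an animal left out 0 to 475. The median between the regions of cKO, 0.09, was -0.04 with quality weights and -0.01 without T6.

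With the replicate block, which pairs the libraries of an animal, the same 9 of the 33 genes were called between the regions of control (3144 of all genes), 0 between the regions of cKO, 0 in the interaction and 0 per animal, so the block changed no call of these genes. The SE of the per-animal log2 fold changes of the 33 genes ran from 0.07 to 0.24, with 3 animals per genotype.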
